A study of Mus musculus with 4 samples.

Results

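Genes known to respond to glucocorticoids were followed in mouse liver, 6 in all: Fkbp5, Tsc22d3, Sgk1, Zbtb16, Klf9 and Hsd11b1. They were chosen by name, as rows of the deposited count table with these symbols, and all 6 were found among its 22155 symbols. Messenger RNA was sequenced from whole liver of wild-type C57BL/6 mice aged 8 to 10 weeks. All mice received the Lieber-DeCarli liquid diet, a standard way of feeding ethanol, with 5% ethanol for 10 days. One group of 2 libraries had this feeding alone, called ethanol alone below. The gavage group of 2 libraries also received a binge of ethanol, 5 g per kg body weight, through a tube into the stomach, and the livers were taken 9 h later. Both groups carried the ethanol diet, so the comparison shows the binge on top of feeding and not ethanol against none. The treatment text in the labels is the same for every sample, and each library was placed by its title. The sources used here give neither the sex of the mice, nor a control gavage, nor the hour of killing for the group that had feeding alone.

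Glucocorticoids are steroid hormones of the adrenal cortex, and corticosterone is the main one in mice. The hormone binds the glucocorticoid receptor, encoded by Nr3c1, which waits in the cytosol in a complex with HSP90 chaperones and then moves to the nucleus. There it binds DNA at a palindrome of paired half-sites and raises or lowers transcription of nearby genes. In liver this system raises gluconeogenesis and amino acid breakdown, and it damps inflammation. Among the 6 genes, Fkbp5 encodes an HSP90 co-chaperone that lowers hormone binding by the receptor, a feedback brake. Tsc22d3 encodes GILZ, a leucine zipper protein that restrains inflammatory transcription factors. Sgk1 encodes a kinase that controls ion channels and transporters. Zbtb16 encodes PLZF and Klf9 a Krüppel-like factor, both zinc finger transcription factors. Hsd11b1 encodes the liver enzyme that regenerates active glucocorticoid from its inactive keto form.

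The classical receptor half-site was searched in windows of 300 bases around annotated start sites, 250 before and 50 from the start on, from RefSeq on build GRCm38.p6. The search used AGAACA and its reverse complement TGTTCT, which covers both strands, and the full palindrome, in which AGAACA is followed after any 3 bases by TGTTCT and which therefore holds both half-sites. Windows were listed for 5 of the 6 genes, 12 in all: 6 for Sgk1, 3 for Tsc22d3 and 1 each for Fkbp5, Klf9 and Hsd11b1. A half-site stood in 4 of these windows, 3 of Sgk1 and 1 of Tsc22d3, and 19% of all 32817 windows hold one. The windows of Fkbp5, Klf9 and Hsd11b1 did not hold these letters, which says nothing about sites elsewhere. The full palindrome stood in 1 window, of Sgk1, and in 3 of all 32817 windows (0.00914%). The windows below are shown because one holds the full palindrome and the other belongs to Tsc22d3, the gene with the largest difference between the groups. Both are printed 5′ to 3′ on the transcribed strand, with the matches in capitals.
Sgk1, chr10:21993640-21993939, + strand: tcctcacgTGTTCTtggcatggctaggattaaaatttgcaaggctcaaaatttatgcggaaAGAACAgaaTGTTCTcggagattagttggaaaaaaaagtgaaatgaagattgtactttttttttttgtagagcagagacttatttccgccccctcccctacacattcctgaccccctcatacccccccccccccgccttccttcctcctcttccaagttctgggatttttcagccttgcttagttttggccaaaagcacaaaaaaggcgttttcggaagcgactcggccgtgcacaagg
Tsc22d3, chrX:140600473-140600772, - strand: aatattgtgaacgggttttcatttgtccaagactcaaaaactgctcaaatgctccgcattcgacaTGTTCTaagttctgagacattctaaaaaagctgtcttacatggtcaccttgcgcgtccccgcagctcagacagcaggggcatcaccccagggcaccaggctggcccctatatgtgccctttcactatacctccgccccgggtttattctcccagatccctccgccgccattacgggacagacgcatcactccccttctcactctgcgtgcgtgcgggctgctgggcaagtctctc
The palindrome of Sgk1 covers chromosome 10, 21993701 to 21993715, positions -189 to -175 from the start of the transcript Sgk1-202. It overlaps no annotated exon of Sgk1 and lies within an intron of 5 longer Sgk1 transcripts. The half-site of Tsc22d3 covers chromosome X, 140600702 to 140600707, positions -185 to -180 from its RefSeq start site, and overlaps no annotated exon. These are matches of letters. Binding was not measured, and the counts do not tell apart the start sites of a gene.

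**Figure D1:**
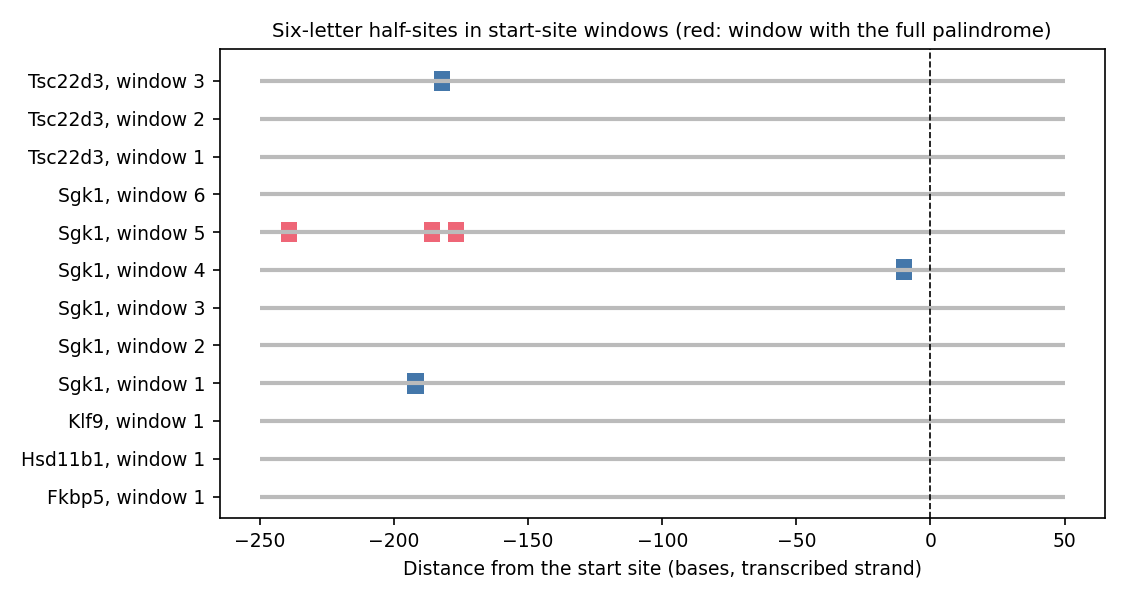
Half-sites in the 12 start-site windows of 5 genes. The x axis gives the distance from the start site in bases on the transcribed strand, the grey lines are the windows, and each block is a match to AGAACA or TGTTCT; the window with the full palindrome is in red. Matches stand in 3 windows of Sgk1 and 1 of Tsc22d3.

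Library totals ran from 28791281 to 30347558 counts, and each of the 6 genes had between 965 and 27578 counts in every library, far above the floor of 3 counts. Values are CPM, counts scaled to a common library size with TMM factors, and group values are mean ± SD with n = 2. The markers of hepatocytes were high throughout, and Alb alone had at least 83277 CPM in every library, as the label of liver requires. Replicate 1 of ethanol alone stood apart in genes of male-type and female-type liver, which were looked at after the data had been seen. Hsd3b5, a male-type gene, had 103 CPM there and at most 0.0996 CPM in the other libraries, and Sult2a1, a female-type gene, had 0.0732 CPM against 113 to 295 CPM. The 5 female-type genes looked at summed to 160.5 CPM there and to 769 to 1588 CPM in the others, but A1bg, 1 of them, was lower still in replicate 2 of gavage, at 7.77 against 14.5 CPM. The Y-linked genes Ddx3y, Eif2s3y, Kdm5d and Uty together had at most 1 count in any library. Both libraries numbered 1 carried more RNA of other tissues. The 5 markers of skeletal muscle summed to 273 and 546 CPM in the libraries numbered 1 (ethanol alone, then gavage), and to 8.79 and 1.03 CPM in those numbered 2. The 6 adipocyte markers summed to 62.1 and 110.5 CPM against 8.46 and 46.1 CPM. Plin1, Cfd and Lep were at 0 in both libraries numbered 2 and Adipoq at 0 in replicate 2 of ethanol alone. Cidec, 1 of the 6, ran otherwise and made up 33.9 of the 46.1 CPM in replicate 2 of gavage. It had 15.7 CPM in replicate 1 of gavage and 3.66 and 0.529 CPM with ethanol alone. Whether each library is its own animal is not stated, so a p-value here covers only the spread between these samples. How much of that spread is technical was not tested.

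Of the 6 genes, Tsc22d3 stood 3.73-fold lower after the gavage, apart from the spread between libraries but short of the adjusted threshold of the main test. The other 5 did not differ beyond that spread. Fkbp5 and Sgk1 had higher group means after the gavage, and Zbtb16, Klf9 and Hsd11b1 lower ones. The 6 genes thus had no common direction, with 2 higher and 4 lower and a median log2 fold change of -0.39, beside 0.02 over all genes tested. In the quasi-likelihood test of edgeR, adjusted by Benjamini-Hochberg over 13309 genes, 0 of the 6 passed an adjusted p of 0.05, as did 0% of all genes. At an unadjusted p under 0.05 stood 1 of the 6, Tsc22d3, where 18.8% of all genes did, 8.91% higher and 9.85% lower. DESeq2 called 1 of the 6, again Tsc22d3, where it called 8.84% of all genes, 3.94% higher and 4.9% lower. The likelihood-ratio test of edgeR also called Tsc22d3 alone among the 6, where it called 4.13% of all genes, 2.14% higher and 1.98% lower. For 2 of the 6, Tsc22d3 and Zbtb16, both gavage libraries lay below both others. Such a lack of overlap held for 54.7% of all genes, 27.5% higher and 27.2% lower, so 2 of 6 is not above that background.

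**Figure D2:**
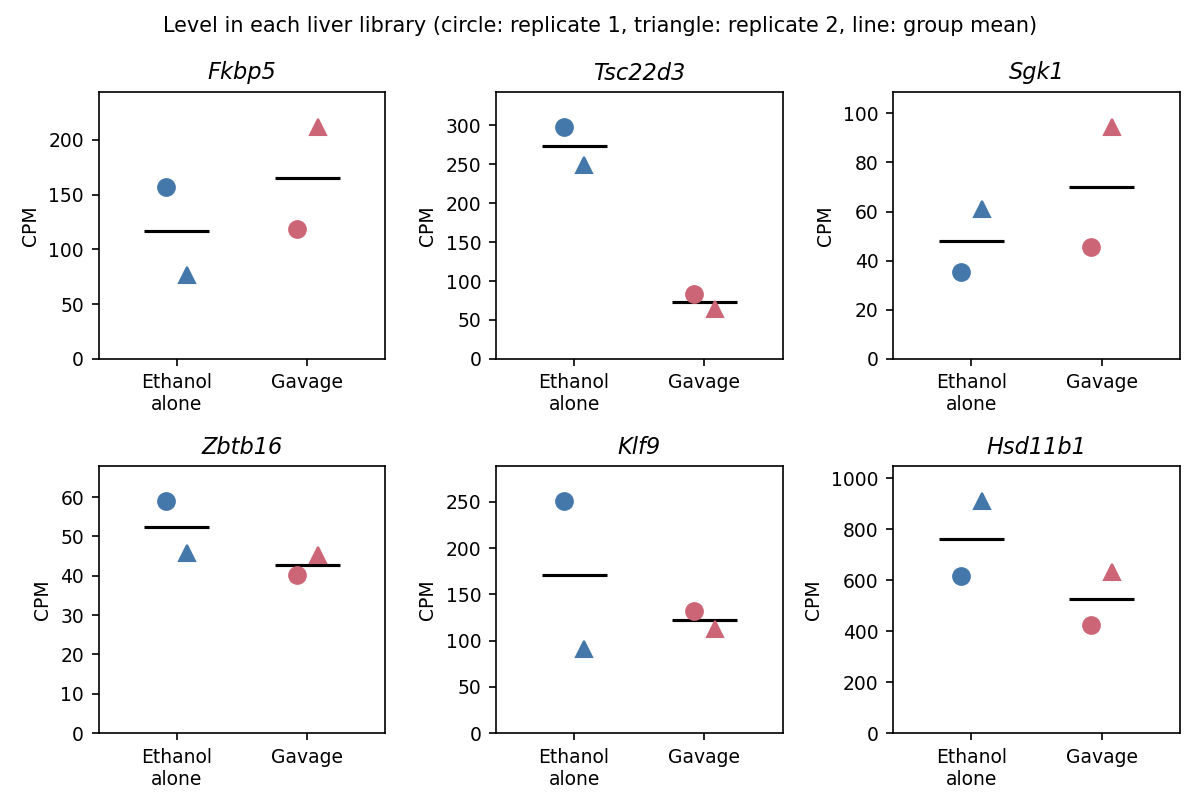
Level of each of the 6 genes in the 4 libraries, in CPM on axes that start at 0. Circles are replicate 1, triangles replicate 2 and lines group means. Tsc22d3 lies at 63.5 and 83 CPM in the gavage libraries, below both ethanol-alone libraries at 249 and 298 CPM, while Fkbp5, Sgk1, Klf9 and Hsd11b1 overlap.

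Tsc22d3 (ENSMUSG00000031431.13; GRCm38 chromosome X, 140539528 to 140600659) had 298 and 249 CPM in the ethanol-alone libraries. After the gavage it had 83 and 63.5 CPM. Both gavage libraries lay far below both others, and the distance between the groups was several times the distance within either. The group values were 73.3 ± 13.8 against 273 ± 34.7 CPM, a log2 fold change of -1.90 (SE 0.25) with a 95% interval from -2.53 to -1.27, or 2.41 to 5.78-fold lower. Its unadjusted p was 0.0005 and its adjusted p 0.12 in edgeR's quasi-likelihood test. By p it ranked 55 of 13309 genes, and 19 among the genes lower after the gavage. The adjusted p was 9.5e-12 in DESeq2 and 9.24e-06 in edgeR's likelihood-ratio test, so these tests differed in whether they called the gene. With each library left out in turn, the log2 fold change ran from -2.10 to -1.73 and the adjusted p of the quasi-likelihood test from 0.1 to 0.304. Tsc22d3 has 6 annotated transcripts, 3 of them coding, and the counts join all of them.

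Macrophages also express Tsc22d3, and the markers of Kupffer cells, the resident macrophages of the liver, lay lower after the gavage too. All 8 had lower values without overlap of the groups, summing to 601 and 606 CPM with ethanol alone and to 353 and 396 CPM after the gavage, and none was at 0. Of all genes, 27.2% lay lower without overlap. Of 7 hepatocyte markers, 6 lay lower as well, 5 of them without overlap, the 7 summing to 138617 and 121733 against 96715 and 118713 CPM. Tat, 1 of these 5, also belongs to the 25 other glucocorticoid-induced genes described below. Of 8 neutrophil markers 4 were tested, and these 4 lay higher without overlap, the 8 summing to 4.91 and 4.46 against 18.4 and 6.61 CPM. The 8 markers of T and NK cells, which also express Tsc22d3, summed to 7.58 and 4.23 against 5.29 and 3.16 CPM. Their part in the lower Tsc22d3 was not tested. In bulk tissue, fewer cells of a type and less RNA per cell cannot be told apart.

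Fkbp5 (ENSMUSG00000024222.17; chromosome 17, 28399094 to 28517527) had 157 and 76.8 CPM with ethanol alone and 119 and 212 CPM after the gavage. The highest value was in replicate 2 of the gavage group and the lowest in replicate 2 of ethanol alone, with the libraries numbered 1 between them, so the groups overlapped. The group values were 165 ± 65.5 against 117 ± 57 CPM, a log2 fold change of 0.50 (SE 0.45; quasi-likelihood adjusted p = 0.583). The 95% interval, from -0.64 to 1.64, spans from lower to 3.11-fold higher, so these libraries do not show that Fkbp5 was unaltered. The result rests on single libraries. The log2 fold change was 1.08 when replicate 1 of ethanol alone was left out and 0.01 when its replicate 2 was. Leaving out replicate 2 of gavage gave 0.02.

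Sgk1 (ENSMUSG00000019970.15; chromosome 10, 21882184 to 21999903), whose start-site window holds the palindrome printed above, had 35.3 and 61.1 CPM with ethanol alone. After the gavage it had 45.6 and 94.5 CPM. In both groups replicate 2 was the higher library, and the groups overlapped. The group values were 70 ± 34.6 against 48.2 ± 18.3 CPM, a log2 fold change of 0.54 (SE 0.44; 95% interval -0.57 to 1.65; quasi-likelihood adjusted p = 0.541). Without replicate 2 of the gavage group the direction turned, to a log2 fold change of -0.09, and leaving out replicate 1 of ethanol alone gave 0.17. The muscle and adipocyte markers also differed by replicate number, in the opposite sense, and their part in the values of Sgk1 was not tested.

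The 2 zinc finger factors differed in how much they varied. Zbtb16 (ENSMUSG00000066687.5; chromosome 9, 48654297 to 48836222) had 59 and 45.8 CPM with ethanol alone and 40.1 and 45.4 CPM after the gavage. The groups did not overlap, but replicate 2 of each group lay within 0.4 CPM of the other. The log2 fold change was -0.29 (SE 0.20; 95% interval -0.80 to 0.22; quasi-likelihood adjusted p = 0.471). It stayed below 0 with each library left out, from -0.52 to -0.12. Klf9 (ENSMUSG00000033863.2; chromosome 19, 23141226 to 23168134) had 251 and 90.8 CPM with ethanol alone and 132 and 113 CPM after the gavage. Its gavage libraries lay between the ethanol-alone libraries. The log2 fold change was -0.48 (SE 0.49; 95% interval -1.72 to 0.76; quasi-likelihood adjusted p = 0.63). Replicate 1 of ethanol alone, which stood apart in the male-type and female-type genes, held the high value of Klf9. Without it the log2 fold change was 0.41, and without replicate 2 of ethanol alone it was -1.09, so the sign depends on which library is kept. The part of the male-type pattern in Klf9 was not tested.

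Hsd11b1 (ENSMUSG00000016194.14; chromosome 1, 193221634 to 193264075), the most abundant of the 6, had 615 and 911 CPM with ethanol alone. After the gavage it had 423 and 632 CPM. Replicate 2 was the higher library in each group, and replicate 2 of the gavage group lay just above replicate 1 of ethanol alone, so the groups overlapped narrowly. The group values were 527 ± 147 against 763 ± 209 CPM, a log2 fold change of -0.53 (SE 0.33; 95% interval -1.37 to 0.30; quasi-likelihood adjusted p = 0.426). The value was below 0 with each library left out, from -0.86 to -0.27.

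**Figure D3:**
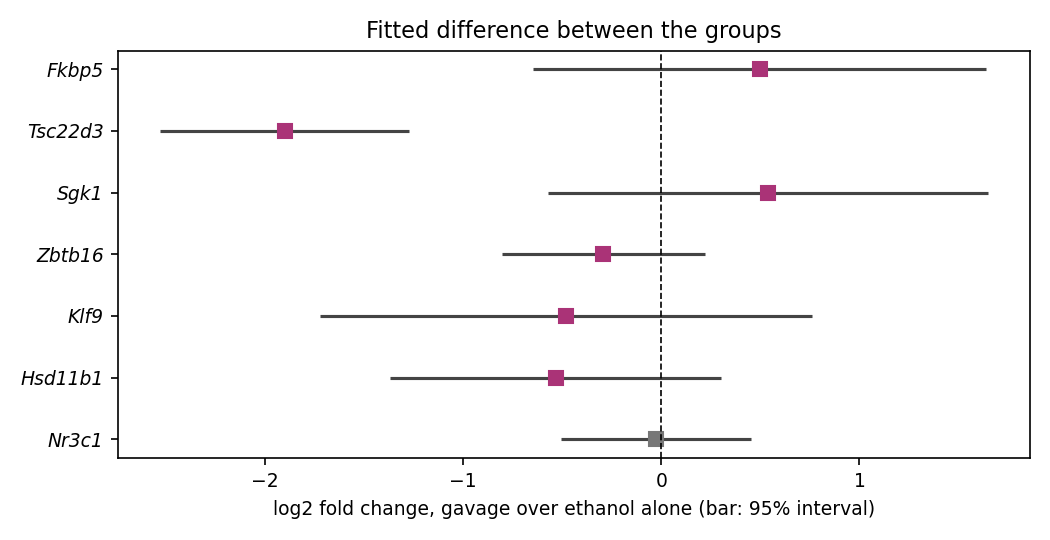
Fitted log2 fold change of gavage over ethanol alone for the 6 genes and, in grey, the receptor gene Nr3c1. Squares are estimates and bars 95% intervals of the quasi-likelihood fit. Only the interval of Tsc22d3, from -2.53 to -1.27, leaves out 0 among the 7 genes drawn.

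Several of the 6 genes varied more between libraries of one group than most genes did. On the scale of log2(CPM + 1), the libraries of ethanol alone differed by 1.46 for Klf9 and 1.03 for Fkbp5, more than for 98.2% and 95.9% of the genes tested, and by 0.27 for the median gene. The gavage libraries differed by 1.03 for Sgk1 and 0.83 for Fkbp5, more than for 96.2% and 94.3% of genes, against a median of 0.18. Tsc22d3 differed by 0.26 and 0.38 within the groups, and Zbtb16 by 0.36 and 0.17.

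Levels of different genes can be set side by side only per length, here as CPM per kilobase of annotated exon. With ethanol alone the order was Hsd11b1 at 179.6 ± 49.2, Tsc22d3 at 63 ± 7.99, Klf9 at 35.5 ± 23.5, Fkbp5 at 12.4 ± 6.02, Zbtb16 at 9.91 ± 1.77 and Sgk1 at 9.84 ± 3.72 CPM per kilobase. The last 3 of these did not differ beyond their spread. After the gavage Hsd11b1 stood at 124 ± 34.7 and Klf9 at 25.4 ± 2.83. Tsc22d3, now at 16.9 ± 3.18, could not be told apart from Fkbp5 at 17.4 ± 6.92 or Sgk1 at 14.3 ± 7.05 CPM per kilobase. Zbtb16 came last at 8.09 ± 0.707. Tsc22d3 thus stood in the second place with ethanol alone and in the middle of the order after the gavage.

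Ratios within a library do not depend on how libraries are scaled, and 10 pairs were chosen after the values had been seen. Per kilobase, Tsc22d3 stood at 4.13 and 7.07 times the level of Fkbp5 with ethanol alone and at 1.52 and 0.655 times after the gavage. Fkbp5 stood at 0.27 and 0.0969 times the level of Fkbp4, the co-chaperone it trades places with on the receptor, and at 0.359 and 0.588 times after the gavage. Neither ratio overlapped between the groups. Hsd11b1 stood at 1.72 and 2.87 times the level of H6pd, the enzyme that supplies its cofactor, and at 1.01 and 1.38 times after the gavage. Sgk1 stood at 0.298 and 0.51 times the level of its relative Sgk2 with ethanol alone and at 2.84 and 1.93 times after the gavage. Sgk2 itself stood at 22.6 ± 16.1 CPM after the gavage against 83 ± 0.584 CPM, while the groups overlapped for Sgk1. Klf9 stood at 0.534 and 0.298 times the level of Klf15 with ethanol alone and at 1.23 and 1.17 times after the gavage. Klf15 itself stood lower after the gavage, with values given below, while the groups overlapped for Klf9. The groups overlapped for Sgk1 over Fkbp5 and not for the other 9 ratios, and since 54.7% of single genes did not overlap either and the pairs were picked with their values known, nothing is read from that count. For these 9 the exact 2-sided permutation p was 0.333, the smallest that 2 libraries against 2 allow, and 0.37 when adjusted over the 10.

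**Figure D4:**
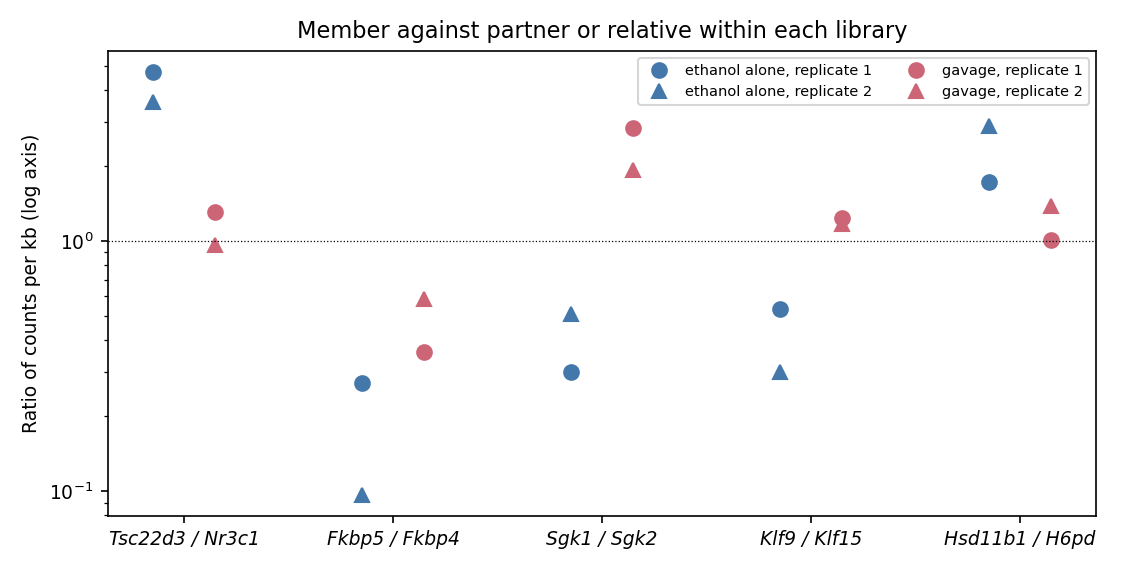
Ratio of counts per kilobase within each library, on a log axis, for 5 genes against a partner or relative. Blue points are ethanol alone and red points gavage, circles replicate 1 and triangles replicate 2. Tsc22d3 over Nr3c1 lies at 4.74 and 3.58 with ethanol alone and at 1.3 and 0.963 after the gavage.

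The receptor itself showed little spread. Nr3c1 had 111 and 123 CPM with ethanol alone and 113 and 117 CPM after the gavage, a log2 fold change of -0.03 (95% interval -0.51 to 0.45; quasi-likelihood adjusted p = 0.952). Of 17 genes of the receptor, its chaperones and co-regulators, 0 were called, and 1 higher and 7 lower had an unadjusted p under 0.05, where 8.91% of all genes were higher and 9.85% lower at that p. Hsp90aa1 and Stip1, chaperones that load the receptor, stood at 23.9 ± 3.15 against 57 ± 20.9 and at 47 ± 2.32 against 103 ± 29.1 CPM, and Hsp90ab1, the most abundant, at 623 ± 37.3 against 1087 ± 160.5 CPM. Fkbp4, the counterpart of Fkbp5, stood at 102 ± 5.96 against 203 ± 43.8 CPM. The co-regulator Ncoa1 stood at 36.3 ± 2.37 against 27.1 ± 3.66 CPM.

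Beside Hsd11b1, 8 of 9 genes of corticosteroid carriage and metabolism were tested. The quasi-likelihood test called 0 of them, as it did of all genes. At its unadjusted p under 0.05 stood 0 higher and 2 lower ones, or 25% of the 8, near the 18.8% of all genes. DESeq2 called 0 higher and 1 lower of the 8, beside 3.94% and 4.9% of all genes. Serpina6, which encodes the corticosteroid-binding globulin made by liver, stood at 158 ± 36.4 against 415 ± 137 CPM (log2 fold change -1.39). Its adjusted p was 0.163 in the quasi-likelihood test and 0.000716 in DESeq2. Srd5a1, a steroid reductase that inactivates corticosterone, stood at 29.8 ± 5.92 against 66.3 ± 37 CPM. H6pd stood at 542 ± 33.8 against 416 ± 34.7 CPM. Cyp3a11, a steroid-hydroxylating P450, followed the replicate number, at 643 and 2261 CPM with ethanol alone and 661 and 1784 CPM after the gavage. Hsd11b2, which works against Hsd11b1, was not tested and had 3 counts in 1 library and 0 in the others.

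Of 25 other genes known to be induced by glucocorticoids, 17 lay lower and 8 higher, with a median log2 fold change of -0.62. The quasi-likelihood test called 0 of them, with 2 higher and 9 lower below 0.05 before adjustment, beside 8.91% and 9.85% of all genes. DESeq2 called 2 higher and 8 lower ones, beside 3.94% and 4.9% of all genes. Klf15, a factor of amino acid breakdown and a relative of Klf9, stood at 59.2 ± 4.63 against 224 ± 67.9 CPM, and Dusp1, a MAP kinase phosphatase, at 11 ± 2.73 against 50.5 ± 21.9 CPM. Their log2 fold changes, -1.92 and -2.19, lay near that of Tsc22d3. Pck1, the gluconeogenic enzyme, stood at 1351 ± 307 against 3257 ± 1317 CPM. The 2 higher genes that DESeq2 called were Mt1 and Mt2, metallothioneins that zinc and cytokines also induce, at 655 ± 17.1 against 65.8 ± 30.6 and 346 ± 23.1 against 23.7 ± 12.6 CPM.

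**Figure D5:**
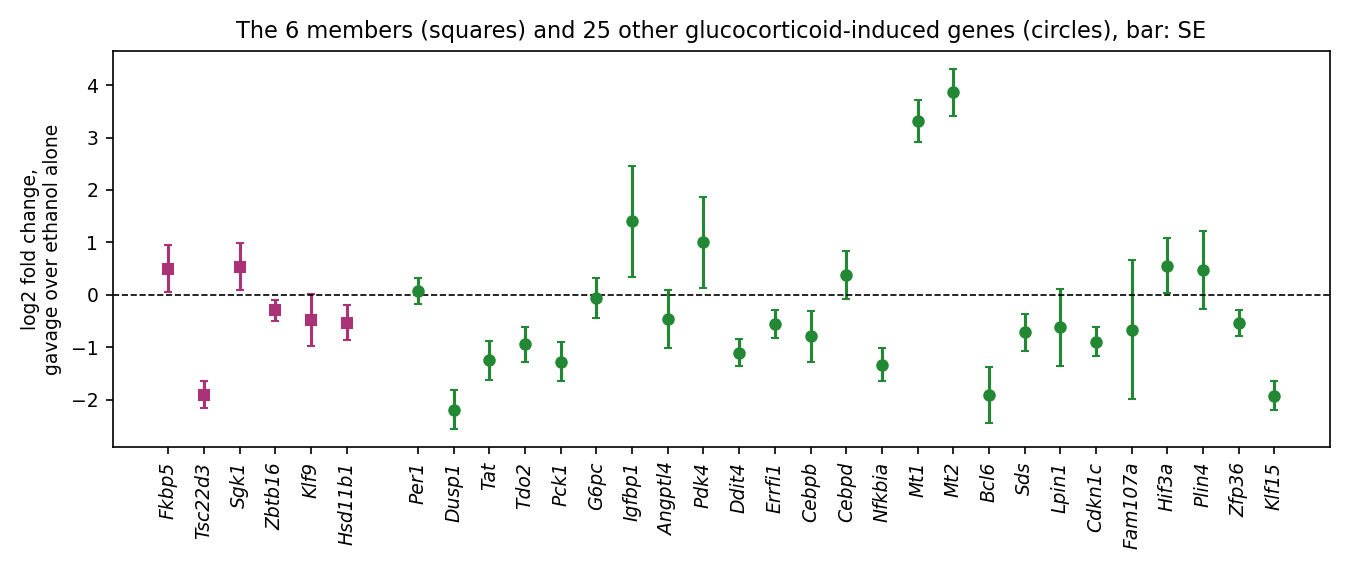
Log2 fold change of gavage over ethanol alone, with SE as bars, for the 6 genes (squares) and 25 other glucocorticoid-induced genes (circles). Tsc22d3, Klf15 and Dusp1 lie at -1.90, -1.92 and -2.19, and Mt1 and Mt2 at 3.32 and 3.86.

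Relatives of the 6 genes did not share one direction. Of 16 such genes, 15 were tested, and the quasi-likelihood test called 0 of them, as it did of all genes. DESeq2 called 2 higher and 4 lower ones, beside 3.94% and 4.9% of all genes. In the quasi-likelihood test, 2 higher and 5 lower ones had an unadjusted p under 0.05. These made up 46.7% of the 15, beside 18.8% of all genes. Of the lower ones, Klf15 and Fkbp4 had the smallest p. Their values are given above, since they also belong to the lists of induced genes and of chaperones, so these lists are not separate. Tsc22d2, of the family of Tsc22d3, stood higher, at 54.4 ± 8.73 against 32 ± 0.356 CPM, and within libraries Tsc22d3 stood at 24.3 and 20 times its level per kilobase with ethanol alone and at 4.46 and 2.72 times after the gavage. Klf10, of the family of Klf9, stood at 100.3 ± 18.3 against 44.3 ± 14.1 CPM. Fkbp8, the most abundant relative, stood at 208 ± 18.1 against 243 ± 38.7 CPM.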

How the data were processed

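The deposited table holds raw read counts, whole numbers for each gene symbol, in 4 libraries. Tools listed in the submitters' processing notes, without a role, are STAR 2.6.0a, HTSeq, edgeR and bcl2fastq 2.20.0.422, with the build GRCm38. Annotation, strand setting and treatment of multiply mapped reads: not given in the sources used here. No annotated exon of another gene overlaps an exon of the 6 genes.

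The analysis used R 4.3.3, edgeR 4.0.16, limma 3.58.1, DESeq2 1.42.0 and Python 3.11.15. filterByExpr by group (minimum count 10, minimum total 15) kept 13309 genes. The main comparison was edgeR's 2-sided quasi-likelihood F-test on TMM-scaled counts of all 4 libraries without covariates, with Benjamini-Hochberg adjustment over all genes and a threshold of 0.05. Each SE was obtained from the fold change and its F statistic (log2 fold change over root F), and 95% intervals use the fit's total degrees of freedom. The libraries of a group were compared before averaging and differed beyond sampling noise (chi-square per degree of freedom 147 and 157). Floors cover counting error only. Exonic length and coordinates came from GENCODE's annotation of GRCm38. Scripts were tested on simulated data.

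The members and lists were chosen with earlier results of these data known. From each list were named the most abundant gene and up to 2 each way with the smallest p among non-overlapping genes whose mean reached 1 CPM. Some genes that this rule or the likeness search picked are not reported here. Alternatives were a replicate block, other scaling factors, filters and tests, and each library left out. DESeq2 with each library left out was chosen after seeing the data.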

Additional observations from a re-analysis of the deposited data

How the results depend on the processing

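Directions held for Tsc22d3, Zbtb16 and Hsd11b1 in all 17 alternatives, with log2 fold changes from -2.10 to -1.73, -0.52 to -0.11 and -0.87 to -0.23. The count of genes called was 0 in the quasi-likelihood test, and also 0 in limma-voom and with the other scaling factors and filters, while 2497 genes had an unadjusted p under 0.05. It became 1177 in DESeq2 and 549 in the likelihood-ratio test, where 1 of the 6 genes, Tsc22d3, was called (log2 fold change -1.90 in both). With a replicate block, 410 genes and again 1 of the 6 were called, Tsc22d3 at -1.91 (quasi-likelihood adjusted p = 0.0185). Same-numbered libraries deviated together (correlation across genes 0.449), but the labels give no shared origin, so the number is not taken as a pairing.

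With 1 library left out, the lone library of its group is assumed to vary like the other group. The quasi-likelihood test then called 0 to 31 genes (12 without ethanol-alone replicate 2, 31 without gavage replicate 2) and 0 of the 6, with 1 to 3 of the 6 at an unadjusted p under 0.05. DESeq2 without each library in turn called 244 to 1290 genes and 1 to 2 of the 6, with 2 to 3 at an unadjusted p under 0.05. It called Tsc22d3 each time, at -2.10 to -1.74, and Klf9 only without replicate 2 of ethanol alone (-1.04, adjusted p = 0.00237). Signs turned for Klf9 without replicate 1 of ethanol alone (0.41 and, in DESeq2, 0.42), for Sgk1 without replicate 2 of gavage (-0.09 and, in DESeq2, -0.105) and for Fkbp5 without replicate 2 of gavage in DESeq2 (-0.0013). Over these settings Klf9 ran from -1.09 to 0.42, Sgk1 from -0.105 to 0.98 and Fkbp5 from -0.0013 to 1.09. Counting error is small at these depths, and the number of libraries limits what can be told apart.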

Other observations

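Glucocorticoids help to set the liver clock, and several of the 6 genes are known to cycle over the day. The sources used here lack the hour of killing for ethanol alone, and the part of time of day was not tested. Of 17 clock genes, edgeR's quasi-likelihood test called 0, as it did of all genes. Before adjustment, 18.8% of all genes had a p under 0.05, and so did 3 higher and 4 lower clock genes, 41.2% of the 17. The groups did not overlap for 12 of them, and for 54.7% of all genes. DESeq2 called 3 higher and 4 lower of the 17, beside 3.94% and 4.9% of all genes. Per3, a period gene, stood at 58.2 ± 0.31 against 9.13 ± 5.35 CPM. Arntl, which encodes the activator BMAL1, stood at 7.86 ± 0.579 against 22.5 ± 7.13 CPM, and Nfil3 at 18.7 ± 0.154 against 37 ± 7.7 CPM. Tef, a clock output factor and the most abundant of the list, stood at 164 ± 12.2 against 103 ± 11.7 CPM.

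The genes most like each of the 6 were sought among 11594 genes by the distance between profiles of log2(CPM + 1) over the 4 libraries, each centred on its own mean. With 4 libraries many genes come close, and likeness here is a description only. Nearest to Tsc22d3 were Spc24, a kinetochore gene, at a distance of 0.0994, and Abca8a, a lipid transporter, at 0.15. Abca8a had 155 and 118 CPM with ethanol alone and 37 and 30.8 CPM after the gavage. Nearest to Fkbp5 were Hhex, a liver transcription factor, and Nlrp12 (0.284 and 0.337). Hhex had 80.2 and 37.5 against 47.5 and 89.8 CPM, the same order of libraries as Fkbp5. Nearest to Sgk1 were Aqp4 and Lpgat1 (0.131 and 0.156), and nearest to Klf9 was Zfand4 (0.129). Nearest to Zbtb16 were Ccpg1 and Gpx7 (0.0352 and 0.0388), and nearest to Hsd11b1 were Srr and Siae (0.0535 and 0.0817). Among the 6 genes themselves the closest were Zbtb16 and Hsd11b1 (0.757) and the farthest Tsc22d3 and Sgk1 (2.68).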
